A study of Mus musculus with 2 samples.

Results

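Transcript levels of 10 nuclear genes that encode subunits of mitochondrial ATP synthase are described in the heart of newborn mice. They are the alpha and beta subunit genes Atp5a1 and Atp5b, the central stalk genes Atp5c1, Atp5d and Atp5e, the c-ring genes Atp5g1, Atp5g2 and Atp5g3, and the peripheral stalk genes Atp5o and Atp5h. Newer gene lists call them Atp5f1a, Atp5f1b, Atp5f1c, Atp5f1d, Atp5f1e, Atp5mc1, Atp5mc2, Atp5mc3, Atp5po and Atp5pd. They were taken by gene identifier, matched without its version to these symbols in the mouse GENCODE annotation. All 10 were found, among 43346 mouse genes in the tables. They were chosen by name and place in the enzyme, by a rule that uses no measured value, although earlier results of these data were known.

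RNA longer than 200 nt was taken from whole hearts of B6NCrl mice at postnatal day 0, and each of 2 libraries was made from 13 pg of it, which the labels equate with 1 cell. Pup 1 gave replicate 1 and pup 3 gave replicate 2; sex was not collected, and both carry the same donor identifier. Spike-in RNA was added, extraction was with a mirVana kit and a Smart-seq protocol is named. The libraries form 1 group with no treatment, no genotype other than the strain and no control, so ratios below set replicate 1 over replicate 2 and carry no test.

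ATP synthase makes ATP with the energy of protons that flow back into the mitochondrial matrix. Protons turn a ring of c subunits in the inner membrane, the central stalk turns with the ring inside the catalytic head, and the peripheral stalk holds the head still. The adult heart depends on oxidative phosphorylation, and cardiac muscle becomes richer in mitochondria after birth.

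The libraries held 39671930 expected counts on mouse genes in replicate 1 and 32751851 in replicate 2. Levels are TPM, transcripts per 1000000 over mouse genes, which are scaled by transcript length and can be compared between genes. All 9 cardiomyocyte markers reached 1 TPM in both libraries, and their summed level was 50578 TPM in replicate 1 against 76726 TPM in replicate 2. The 6 fibroblast markers summed to 1127 and 960 TPM in replicates 1 and 2, and the 5 endothelial markers to 1291 and 1333 TPM. Muscle genes thus led by far in both libraries, and Fabp4 alone made up most of the endothelial sum, at 828 TPM in replicate 1 against 989 TPM in replicate 2. Of 5 macrophage markers 1 reached 1 TPM in both libraries, and their sums were 87.6 TPM in replicate 1 against 47.8 TPM in replicate 2, with Cd68 and Ptprc at 0 in both. Red cell markers summed to 5657 TPM in replicate 1 against 5564 TPM in replicate 2, while the liver markers Alb and Afp, the lung markers Sftpc and Scgb1a1 and the brown fat marker Ucp1 were at 0 in both. In RNA of whole hearts, fewer cells of a type and less RNA per cell cannot be told apart.

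All 10 subunit genes were read in both hearts, and 9 of them averaged more than 1000 TPM. With all transcript models counted, Atp5b was the highest and Atp5g2 the lowest. In protein-coding transcripts alone, Atp5b was below Atp5g1 in replicate 1 (3512 against 3994 TPM) and above it in replicate 2 (5859 against 4985 TPM). Together the 10 made up 2.37% of all TPM in replicate 1 and 3.16% in replicate 2, or 2.76 ± 0.55% (SD, n = 2). Among 21461 nuclear protein-coding genes, ranked by the mean of the libraries, Atp5b was at rank 6, Atp5g1 at rank 13, Atp5g3 at rank 20 and Atp5a1 at rank 27. Atp5h was at rank 29, Atp5o at rank 36, Atp5c1 at rank 44, Atp5d at rank 80 and Atp5e at rank 89. Atp5g2 stood apart at rank 440. The highest of the 10 exceeded the lowest 13.4-fold in replicate 1 and 40.5-fold in replicate 2. Without Atp5g2 this span was 4.29-fold in replicate 1 and 6.07-fold in replicate 2.

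**Figure D1:**
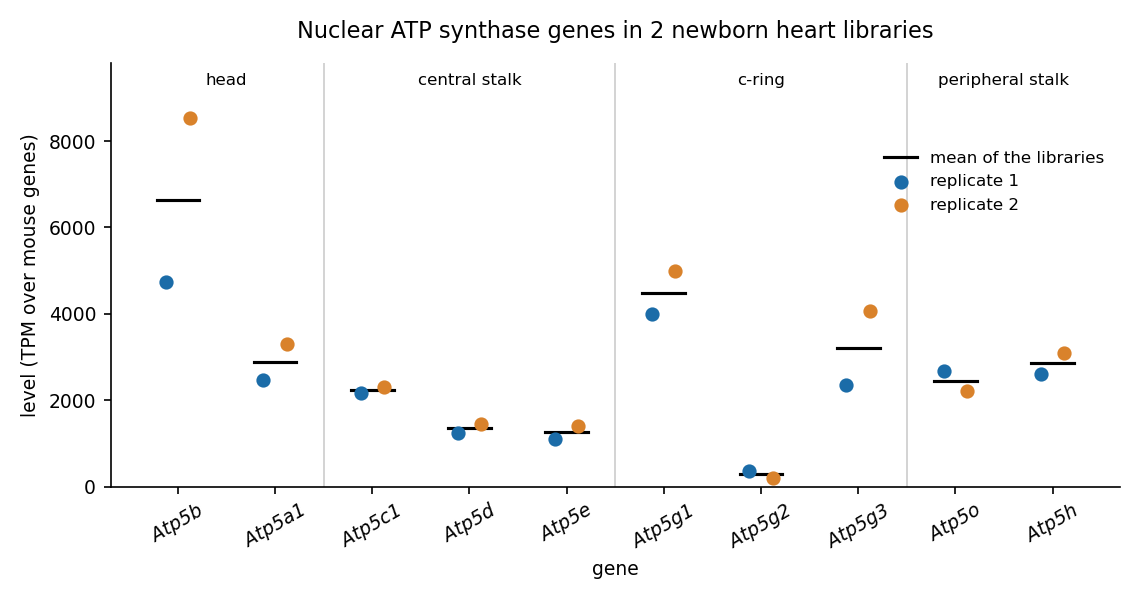
Level in TPM (linear axis from 0) of the 10 genes, grouped by their place in the enzyme; each point is 1 library, blue for replicate 1 and orange for replicate 2, and the line is their mean. The c-ring gene Atp5g2, at 353 TPM in replicate 1 against 211 TPM in replicate 2, lies below the other 9, whose lowest value is 1105 TPM.

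The catalytic head consists of alpha and beta subunits in equal number, with the catalytic sites on beta. Atp5b, the beta subunit gene on chromosome 10 (128083273 to 128090391, plus strand, mm10), had 4743 TPM in replicate 1 against 8540 TPM in replicate 2. Atp5a1, the alpha subunit gene on chromosome 18 (77773729 to 77782869, plus strand), had 2469 TPM in replicate 1 against 3308 TPM in replicate 2. Both genes were lower in replicate 1, and Atp5b was above Atp5a1 in each heart. The log2 ratio of Atp5b over Atp5a1 was 0.94 in replicate 1 and 1.37 in replicate 2, with a mean of 1.15 ± 0.30 (SD, n = 2), or 2.23-fold. A pair is called different here when both libraries give 1 sign and the mean is beyond 2 SD, a rough rule with 2 libraries, and this pair was. In protein-coding transcripts alone the ratio was smaller, at 0.76 ± 0.31, and still differed by the rule. By read counts not scaled to length the ratio was 0.47 ± 0.30, which is within 2 SD.

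The transcript tables split each gene's level among overlapping models, and 5 of the 10 genes had over 95% of their TPM in 1 coding model in both libraries (Atp5d, Atp5e, Atp5g1, Atp5g2 and Atp5o). In Atp5b the coding model Atp5b-201 held 74.0% of the TPM in replicate 1 and 68.6% in replicate 2. Most of the rest, 20.6% in replicate 1 and 27.6% in replicate 2, went to Atp5b-206, a noncoding model of 478 nt of which 457 nt are also in Atp5b-201. Only 21 nt of that model are its own, which limits how well reads can tell the models apart. Of the counts of the gene, which are not scaled to length, Atp5b-206 held 5.41% in replicate 1 and 7.65% in replicate 2. In protein-coding transcripts alone, Atp5b had 3512 TPM in replicate 1 against 5859 TPM in replicate 2.

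In Atp5a1 the coding model Atp5a1-201 held 97.3% of TPM in replicate 1 and 89.8% in replicate 2. The difference lay in Atp5a1-204, annotated as a target of nonsense-mediated decay, which held 0.18% in replicate 1 and 9.20% in replicate 2. All 774 nt of Atp5a1-204 lie within Atp5a1-201. The other 8 genes had less than 5% of their TPM outside coding models in each library.

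**Figure D2:**
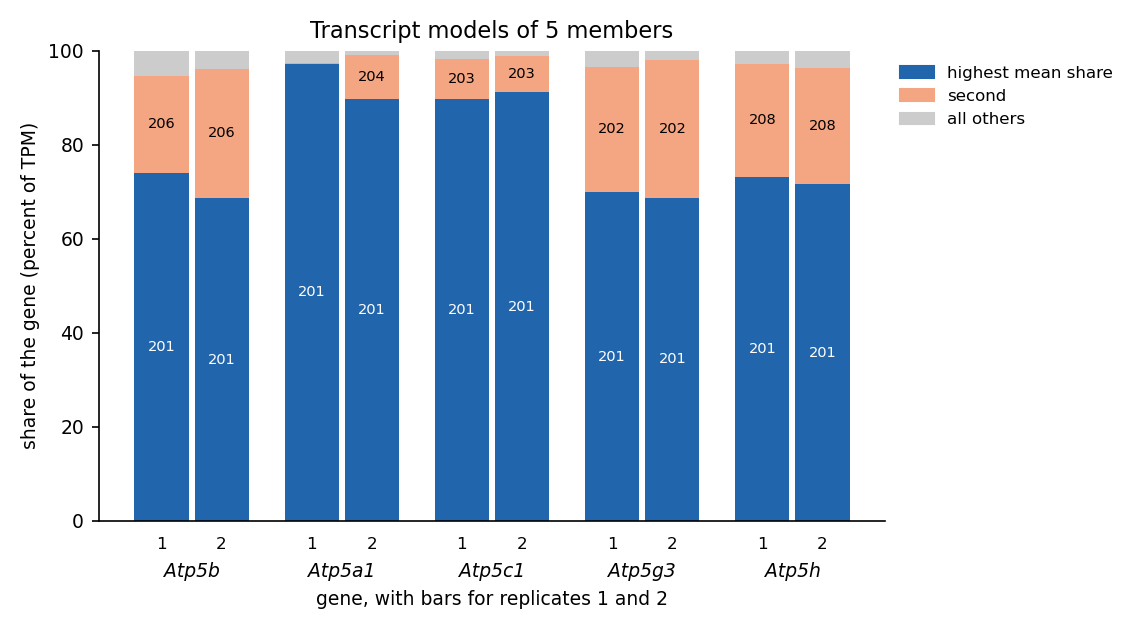
Share of each gene's TPM, in percent, held by its transcript models in the 5 genes with a second model of note; bars 1 and 2 are the replicates and the numbers in the bars are model names. Model 204 of Atp5a1 holds 9.20% in replicate 2 and 0.18% in replicate 1, while the second models of the other 4 genes hold between 7.76% and 29.5%.

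The central stalk is built of 1 copy each of gamma, delta and epsilon. Atp5c1, the gene of the gamma shaft on chromosome 2 (10056016 to 10080510, minus strand, mm10), had 2174 TPM in replicate 1 against 2297 TPM in replicate 2. Atp5d, the delta subunit gene on chromosome 10 (80138632 to 80145818, plus strand), had 1244 TPM in replicate 1 against 1456 TPM in replicate 2. Atp5e, the epsilon subunit gene on chromosome 2 (174461072 to 174464105, minus strand), had 1105 TPM in replicate 1 against 1407 TPM in replicate 2. The gamma gene was the highest of the stalk in both hearts, and its SD of 87.4 TPM was the smallest of the 10 genes. The log2 ratio of Atp5c1 over Atp5d was 0.80 in replicate 1 and 0.66 in replicate 2 (0.73 ± 0.10), and that of Atp5c1 over Atp5e was 0.98 in replicate 1 and 0.71 in replicate 2 (0.84 ± 0.19). Both pairs differed by the rule. Atp5d over Atp5e, at 0.17 in replicate 1 and 0.05 in replicate 2 (0.11 ± 0.09), did not.

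The gamma gene has a short exon near its end that heart and skeletal muscle are known to skip, which leaves out a last codon, GAT, before the stop. It is 37 nt long, exon 9 of the 10 of Atp5c1-203 (chr2:10056770-10056806, minus strand, mm10), and is missing from Atp5c1-201, which has 9 exons. The junctions are shown because they are where the forms differ. In lower case are the last 20 bases of exon 8 (chr2:10058996-10059015), shared by both, and in capitals the coding bases that follow, 4 in the form without the exon (chr2:10056158-10056161) and 7 in the form with it (chr2:10056800-10056806), each ending in its stop codon.
Atp5c1-201, exon skipped: atctctggggctgctgctctGTAA
Atp5c1-203, exon included: atctctggggctgctgctctGGATTAA

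Among the 3 models that reach the 3′ end of Atp5c1, forms without the exon had 1949 TPM in replicate 1 against 2094 TPM in replicate 2. Forms with the exon had 186 TPM in replicate 1 against 179 TPM in replicate 2. The skipped form was thus 10.5-fold higher in replicate 1 and 11.7-fold higher in replicate 2, and took 91.7 ± 0.61% of the TPM of these models (SD, n = 2). The hearts gave nearly the same split, and models with the exon had a level in both. These levels are estimates for whole models, and reads over the exon or its junctions were not counted. Of the 1166 nt of Atp5c1-203, 120 nt are not in Atp5c1-201, and the exon makes up 37 nt of these.

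The c-ring is encoded by 3 genes whose mature proteins are the same and whose import sequences differ. Atp5g1, on chromosome 11 (96068852 to 96075670, minus strand, mm10), had 3994 TPM in replicate 1 against 4985 TPM in replicate 2. Atp5g3, on chromosome 2 (73908447 to 73911326, minus strand), had 2341 TPM in replicate 1 against 4054 TPM in replicate 2. Atp5g2, on chromosome 15 (102662864 to 102672352, minus strand), had 353 TPM in replicate 1 against 211 TPM in replicate 2. Atp5g1 led and Atp5g2 came last in both hearts.

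Of the summed c-ring level, Atp5g1 made up 59.7% in replicate 1 and 53.9% in replicate 2 (56.8 ± 4.12%). Atp5g3 made up 35.0% in replicate 1 and 43.8% in replicate 2 (39.4 ± 6.24%). Atp5g2 made up 5.28% in replicate 1 and 2.28% in replicate 2 (3.78 ± 2.12%). By the reads assigned to the genes themselves, the first 2 thus carried nearly all of the c-ring level in both hearts. Reads assigned to pseudogene copies, described below, are left out of these shares. The log2 ratio of Atp5g1 over Atp5g2 was 3.50 in replicate 1 and 4.56 in replicate 2 (4.03 ± 0.75), or 16.3-fold. That of Atp5g3 over Atp5g2 was 2.73 in replicate 1 and 4.26 in replicate 2 (3.49 ± 1.08), or 11.3-fold. Both differed by the rule, whereas Atp5g1 over Atp5g3, at 0.77 in replicate 1 and 0.30 in replicate 2 (0.53 ± 0.33), did not.

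Whether reads can be told apart among the 3 genes depends on their letters, so the same stretch is shown for each: the coding part of the last exon with the stop codon, 115 nt, at chr11:96073104-96073218 for Atp5g1, chr15:102663014-102663128 for Atp5g2 and chr2:73908593-73908707 for Atp5g3 (minus strand, mm10). Capitals mark bases that differ from Atp5g1.
Atp5g1: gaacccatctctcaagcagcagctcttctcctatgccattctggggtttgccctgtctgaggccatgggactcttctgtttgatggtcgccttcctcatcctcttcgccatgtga
Atp5g2: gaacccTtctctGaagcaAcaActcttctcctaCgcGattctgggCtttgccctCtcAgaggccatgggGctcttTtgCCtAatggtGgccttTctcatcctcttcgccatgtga
Atp5g3: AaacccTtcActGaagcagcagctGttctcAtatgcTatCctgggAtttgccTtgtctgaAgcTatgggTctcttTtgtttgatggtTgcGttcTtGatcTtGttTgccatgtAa
In this stretch Atp5g1 and Atp5g2 differ at 16 bases (86.1% identity) and share no run longer than 21 bases. Atp5g1 and Atp5g3 differ at 22 bases (80.9%), with a longest shared run of 11, and Atp5g2 and Atp5g3 at 28 (75.7%), with a longest shared run of 8. No run of 100 bases, the read length read off the deposited effective lengths, is common to any pair of these genes.

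Their pseudogenes are another matter. Of the 632 windows of 100 bases in the leading Atp5g2 model, 546 (86.4%) also occur in the transcripts of Gm10175 or Gm10231. Each of these copies has a model of 441 nt identical to the Atp5g2 coding sequence, and Gm10175 has a longer one as well. The tables give Gm10175, on chromosome 7, 396 TPM in replicate 1 against 277 TPM in replicate 2, with 6267 counts in replicate 1 and 3721 in replicate 2. Atp5g2 itself had 7207 counts in replicate 1 and 3649 in replicate 2, so its copy held 87.0% and 102% of its count in replicates 1 and 2. Gm10231 was at 0 in both libraries, although its 441 nt are the same. Atp5g2 and its copies together had 749 TPM in replicate 1 against 488 TPM in replicate 2.

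Atp5g1 shares 285 of its 497 windows (57.3%) with Gm10039, a copy on chromosome 11 with 99.8% identity. Gm10039 had 358 TPM in replicate 1 against 397 TPM in replicate 2, and its counts were 5.58% of those of Atp5g1 in replicate 1 and 4.96% in replicate 2. Atp5g3 shares no window with another gene. With the reads of all copies added to their parents, Atp5g1 over Atp5g2 was 3.00 and Atp5g3 over Atp5g2 was 2.35 on the log2 scale, and both still differed by the rule. The exact level of Atp5g2 and its share of the c-ring level are thus uncertain, while its place below the other c genes was the same either way.

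Promoters of the 3 c genes are shown because Atp5g2 lay below Atp5g1 and Atp5g3 while all 3 make the same mature protein. Any part of the promoters in these levels was not tested. Each is the stretch of 250 bases before to 50 after the RefSeq start (GRCm38.p6, minus strand), at chr11:96075582-96075881 for Atp5g1, chr15:102670998-102671297 for Atp5g2 and chr2:73911277-73911576 for Atp5g3. Capitals mark matches, on either strand, to 5 motifs of factors known to act on mitochondrial or housekeeping genes: TGACCTTG of the estrogen-related receptors, CGCATGCG of NRF1, CCGGAAG of ETS factors, AAGATGGC of YY1 and CCAAT of NF-Y.
Atp5g1: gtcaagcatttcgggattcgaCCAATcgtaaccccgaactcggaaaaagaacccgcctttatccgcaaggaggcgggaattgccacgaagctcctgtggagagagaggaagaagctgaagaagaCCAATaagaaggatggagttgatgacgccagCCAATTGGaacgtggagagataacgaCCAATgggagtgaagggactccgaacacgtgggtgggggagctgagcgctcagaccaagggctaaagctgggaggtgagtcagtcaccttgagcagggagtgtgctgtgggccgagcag
Atp5g2: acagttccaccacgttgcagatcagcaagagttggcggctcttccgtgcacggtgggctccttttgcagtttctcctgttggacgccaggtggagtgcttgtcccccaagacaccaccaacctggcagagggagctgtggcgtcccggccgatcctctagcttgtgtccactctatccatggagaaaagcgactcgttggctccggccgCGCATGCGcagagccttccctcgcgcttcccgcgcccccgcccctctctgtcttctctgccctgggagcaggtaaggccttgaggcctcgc
Atp5g3: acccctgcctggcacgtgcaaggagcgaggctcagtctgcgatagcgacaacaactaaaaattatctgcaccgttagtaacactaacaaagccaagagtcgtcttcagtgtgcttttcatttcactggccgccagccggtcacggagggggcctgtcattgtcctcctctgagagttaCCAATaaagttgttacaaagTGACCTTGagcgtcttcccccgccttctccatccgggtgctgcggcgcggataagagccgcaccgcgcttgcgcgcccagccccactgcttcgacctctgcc
The Atp5g1 window holds CCAAT 5 times, of which the matches at -95 to -91 and -92 to -88 from the start overlap on opposite strands. The Atp5g2 window holds CGCATGCG at -41 to -34 and no CCAAT. The Atp5g3 window holds TGACCTTG at -52 to -45 and CCAAT at -72 to -68.

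Promoter windows were matched for 9 of the 10 genes. CCAAT was found in 6 of these (Atp5b, Atp5c1, Atp5e, Atp5g1, Atp5g3 and Atp5h) and in 37.9% of all 27025 promoters. CCGGAAG was found in Atp5e and Atp5h and in 9.12% of all promoters. TGACCTTG was found in 1.53% of all promoters and, of the 9 genes, in Atp5g3. CGCATGCG was found in 1.91% of all promoters and, of the 9 genes, in Atp5g2, while AAGATGGC was found in none of the 9 and in 2.88% of all. These are matches of letters and say nothing of binding.

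The peripheral stalk is represented by Atp5o, the gene of the oligomycin sensitivity-conferring protein at its top, and Atp5h, the gene of subunit d. Atp5o, on chromosome 16 (91925214 to 91931687, minus strand, mm10), had 2683 TPM in replicate 1 against 2215 TPM in replicate 2. Atp5h, on chromosome 11 (115415689 to 115419962, minus strand), had 2612 TPM in replicate 1 against 3088 TPM in replicate 2. Their order was not the same in the hearts: the log2 ratio of Atp5o over Atp5h was 0.04 in replicate 1 and -0.48 in replicate 2 (-0.22 ± 0.37). Atp5h shares 32.7% of its windows with the copy Gm10250, which had 38.3 TPM in replicate 1 against 41.0 TPM in replicate 2. Atp5o shares 30.3% of its windows with other records, of which the copy Gm5436 had 213 counts in replicate 1 against 163 counts in replicate 2.

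Within Atp5h and Atp5g3 a second coding model held a sizeable share of the TPM. Atp5h-208 held 24.1% in replicate 1 and 24.8% in replicate 2, beside 73.2% in replicate 1 and 71.6% in replicate 2 for Atp5h-201. Atp5g3-202 held 26.8% in replicate 1 and 29.5% in replicate 2, beside 69.9% in replicate 1 and 68.6% in replicate 2 for Atp5g3-201. In each gene both models have the same coding bases, and those of Atp5g3 differ in the first exon. All 486 nt of Atp5h-208 lie within Atp5h-201, and 10 of the 723 nt of Atp5g3-202 are its own. This limits how well reads can tell the models apart, so these splits are estimates. The leading model was the same in both libraries for all 10 genes.

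Levels summed by place in the enzyme were 7213 TPM in replicate 1 against 11848 TPM in replicate 2 for the head. They were 6688 TPM in replicate 1 against 9249 TPM in replicate 2 for the c-ring, 5295 and 5303 TPM for the peripheral stalk genes, and 4522 and 5160 TPM for the central stalk. The peripheral stalk sum was nearly the same in the hearts, since Atp5o and Atp5h differed in opposite directions. The c-ring sum over Atp5b was 0.50 in replicate 1 and 0.12 in replicate 2 on the log2 scale (0.31 ± 0.27) and did not differ by the rule. The call depended on the models counted: with noncoding models left out it was 0.78 ± 0.19 and differed by the rule. By expected counts, which are not scaled to length, it was -1.04 ± 0.20 and differed in the opposite direction. Counts favour longer transcripts, and Atp5b averaged 1546 nt in replicate 1 against 601 to 731 nt for the c genes. The sign by counts therefore cannot show which level is higher. In all, 5 of the 9 pairs differed.

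Ordered by mean level the genes ran Atp5b, Atp5g1, Atp5g3, Atp5a1, Atp5h, Atp5o, Atp5c1, Atp5d, Atp5e and Atp5g2. Of the 9 neighbours in that order, 2 were further apart than 2 SD of their ratio, Atp5c1 over Atp5d and Atp5e over Atp5g2 (2.19 ± 0.77). The other 7 neighbours did not differ beyond their spread, so the order within the upper 7 genes is not resolved step by step.

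**Figure D3:**
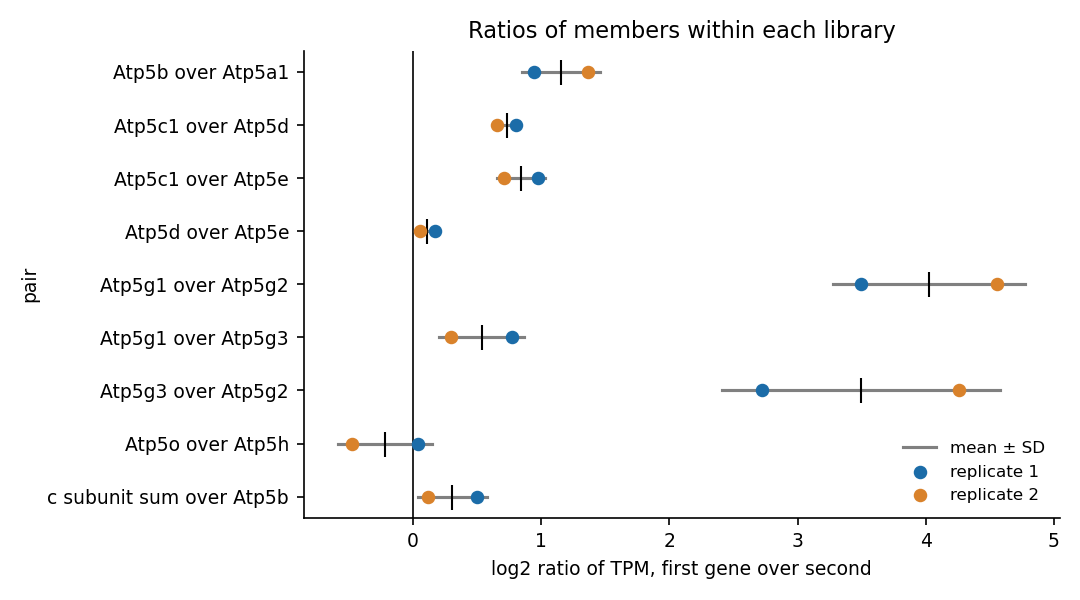
Log2 ratio of TPM within each library for the 9 pairs, with points for replicate 1 (blue) and replicate 2 (orange), a tick for the mean and a bar for ± 1 SD. The pairs over Atp5g2 lie farthest from 0, at means of 4.03 and 3.49, and Atp5o over Atp5h is the pair with points on both sides of 0.

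The hearts differed in the same direction for most of the 10 genes, by less than 2-fold. Atp5b had a log2 ratio of replicate 1 over replicate 2 of -0.85 and Atp5g3 one of -0.79, which are 1.80-fold and 1.73-fold higher levels in replicate 2. Atp5g2 had a ratio of 0.74 and Atp5o one of 0.28, 1.67-fold and 1.21-fold higher in replicate 1. The remaining 6 lay between -0.42 (Atp5a1) and -0.08 (Atp5c1). In all, 8 of the 10 were lower in replicate 1, or 7 under the size factors of DESeq2, which shifted all genes by 0.11 and put Atp5c1 at 0.03. The median over the 10 genes was -0.28.

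None of the 10 was over 2-fold apart, against 39.0% of the 4411 genes whose mean reached 20 TPM and 50 counts, which are mostly at lower levels. Of 151 genes whose mean reached 1000 TPM, 9.93% were more than 2-fold apart, and of the 9 subunit genes at that level none was, so this count is near the share of their level. By direction, 49.7% of the 4411 genes and 61.6% of the 151 were lower in replicate 1, with medians of 0.01 and -0.11. At 1000 TPM or more, 8 of the 9 subunit genes were lower in replicate 1, with a median of -0.32. The cardiomyocyte markers moved the same way, with 8 of 9 lower in replicate 1 and a median of -0.52. The fibroblast markers had a median of 0.33, with 2 of 6 lower in replicate 1, and the endothelial markers a median of 0.42, with 2 of 5 lower. The part of any of these in the difference was not tested. The pups, the RNA aliquots and the amplifications differ together and cannot be told apart.

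**Figure D4:**
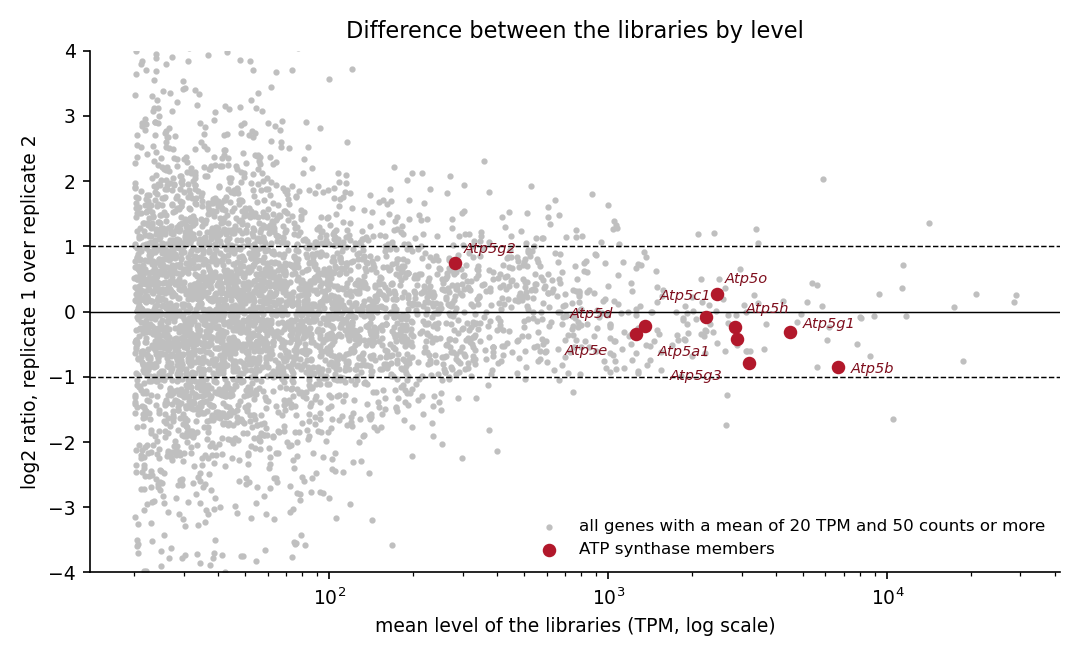
Log2 ratio of replicate 1 over replicate 2 against mean TPM (log axis) for the 4411 genes whose mean reached 20 TPM and 50 counts (grey) and the 10 ATP synthase genes (red, named); 274 genes lie beyond the axis limits of -4 and 4. The spread narrows with level, and the 10 genes lie between the dashed lines of 2-fold difference.

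The other 7 nuclear subunits complete the enzyme. Atp5f1, the gene of subunit b of the peripheral stalk, had 1687 TPM in replicate 1 against 1299 TPM in replicate 2, and Atp5j, of coupling factor 6, had 2155 TPM in replicate 1 against 2468 TPM in replicate 2. The membrane subunit genes Atp5j2, Atp5k and Atp5l had 999, 884 and 519 TPM in replicate 1, and 1412, 1204 and 438 TPM in replicate 2. Usmg5, a small membrane subunit linked to dimers of the enzyme, had 1548 TPM in replicate 1 against 3777 TPM in replicate 2, and 2010107E04Rik, a small proteolipid of the enzyme, 1217 TPM in replicate 1 against 2421 TPM in replicate 2. Usmg5 was 2.44-fold higher in replicate 2 and the one nuclear subunit over 2-fold apart, against 9.93% of all genes at 1000 TPM or more. With the 10, these 17 accounted for 3.27% of TPM in replicate 1 and 4.46% in replicate 2. Of the 17, 13 were lower in replicate 1, against 61.6% of all genes at 1000 TPM or more.

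The membrane part also holds subunits made inside the mitochondrion. mt-Atp6, whose product forms the proton path against the c-ring, had 29806 TPM in replicate 1 against 26947 TPM in replicate 2. The posterior SD of the mt-Atp6 count was 12.2% of it in replicate 1 and 11.5% in replicate 2, so its level is itself uncertain. Its difference between the hearts was 1.11-fold. mt-Atp8 had 22812 TPM in replicate 1 against 18881 TPM in replicate 2, with a posterior SD of 0 in both. The posterior SD belongs to the count within a library and does not measure the spread between the hearts.

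The 7 genes that regulate or assemble the enzyme had lower means than the 9 leading subunit genes. Atpif1, the inhibitor gene, whose product blocks ATP hydrolysis when the membrane potential fails, had 1061 TPM in replicate 1 against 1345 TPM in replicate 2, near Atp5d and Atp5e. Atpaf1, the assembly factor for beta, had 50.2 TPM in replicate 1 against 26.7 TPM in replicate 2, and Atpaf2, the factor for alpha, 33.4 TPM in replicate 1 against 36.5 TPM in replicate 2. Tmem70, which is needed to build the c-ring, had 1.05 TPM (51 counts) in replicate 1 and 65.3 TPM (2881 counts) in replicate 2. It was the 1 gene of the 7 over 2-fold apart, against 39.0% of all genes whose mean reached 20 TPM and 50 counts. Fmc1, Tmem242 and Atp5s, the others of the list, had 315, 58.6 and 20.2 TPM in replicate 1, and 459, 39.7 and 16.6 TPM in replicate 2. Of the carriers that serve the enzyme, the ADP/ATP carrier genes Slc25a4 and Slc25a5 had 5972 and 2504 TPM in replicate 1, and 5647 and 1775 TPM in replicate 2. Slc25a3, the phosphate carrier gene, had 806 TPM in replicate 1 against 1464 TPM in replicate 2.

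Set beside the nuclear genes of the respiratory chain, from lists without the mitochondrially encoded subunits, the median of the 10 genes was 2405 TPM in replicate 1 against 2692 TPM in replicate 2. Over all 17 nuclear subunits of ATP synthase it was 1687 TPM in replicate 1 against 2297 TPM in replicate 2. The median of 14 complex IV genes was 1726 TPM in replicate 1 against 2181 TPM in replicate 2, and that of 9 complex III genes 1789 and 2136 TPM. The 4 complex II genes had medians of 1005 TPM in replicate 1 against 1145 TPM in replicate 2, and the 36 complex I genes 730 and 893 TPM. The median of the 10 genes was above that of each of these lists in both hearts, although single genes such as Atp5g2 were below. The median of the 17 was below those of complexes III and IV in replicate 1. Complexes I to IV were lower in replicate 1 for 29 of 36, 3 of 4, 7 of 9 and 13 of 14 genes, with median log2 ratios of -0.26, -0.16, -0.31 and -0.49. Against the 61.6% of genes at 1000 TPM or more that were lower in replicate 1, and the 49.7% at 20 TPM or more, 3 of 4 and 7 of 9 are near the share of their level. Atp5b and Atp5g1 had means above those of the highest nuclear genes of complexes I to IV, Ndufb8 (2241 TPM), Sdhb (1497 TPM), Uqcr11 (2899 TPM) and Cox4i1 (3681 TPM).

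**Figure D5:**
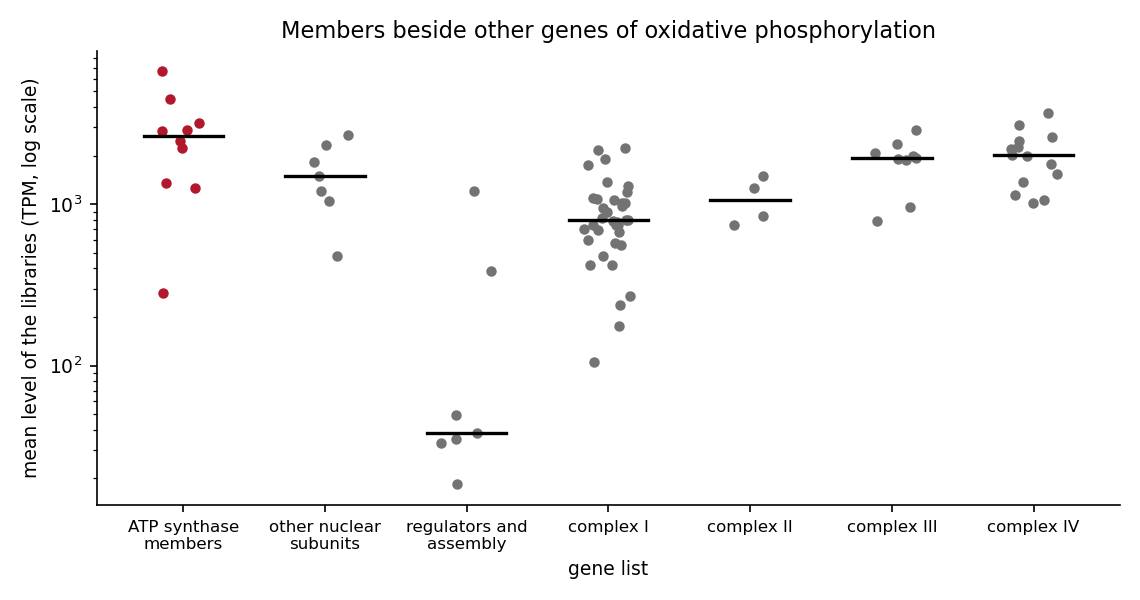
Mean TPM of the 2 libraries (log axis), 1 point per gene with a line at each list's median, for the 10 ATP synthase genes (red), the 7 other nuclear subunits, the 7 regulator and assembly genes and the nuclear genes of respiratory complexes I to IV (grey). The 10 genes have a median of 2649 TPM and the other 7 subunits one of 1493 TPM, which makes 2235 TPM over all 17, and Atp5g2 is the low point at 282 TPM.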

How the data were processed

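RNA was sequenced in 2 libraries of 1 group, separate pups of the same strain. The authors deposited, per library, a gene and a transcript table of expected counts, which are estimated reads that need not be whole. Per the file headers the tables also hold TPM, the posterior mean and posterior SD of each count, and the percent of its gene that each transcript makes up. Per text notes deposited with them, the tables use mm10 and GENCODE M4; the sources used here name neither aligner nor quantifier. GENCODE M21 supplied gene names, types and positions, matched by identifier without version for 42462 of 43346 genes.

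Deposited TPM was rescaled to 1000000 over mouse genes, without spike-ins. Ratios are on log2(TPM + 1), which understates changes of low genes. Depth was 40648662 and 33173354 expected counts in replicates 1 and 2. Reads carried no molecular identifiers, so amplified copies cannot be told from separate molecules, and large counts need not mean a small error. No strand rule is given, so antisense overlaps (Haus1 with Atp5a1, Cbarp with Atp5d) are not separated. Both libraries are separate pups, but with n = 2 and 1 group no test was made. Where a copy is the same letter for letter, the authors' tables assign its reads by estimation. The rule for named genes took the 10 members, the genes of the lists of other subunits, regulators, mitochondrially encoded subunits and carriers, the highest nuclear gene of each respiratory complex, and pseudogene copies at 1 TPM or more in either library. Gm10231, Haus1, Cbarp and the single cell type markers fall outside it and were named after their values were seen. No gene was named for a like pattern, since 2 libraries give none. The members and lists were chosen with earlier results of these data known.

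Pseudogene copies were found with minimap2 2.31-r1302 at 90% identity over 50% of their length or more. Of 19 found, 15 were in the tables and 6 held 1 TPM or more; the 2 not described above are copies of Atp5c1, Gm14794 (4.66 TPM in replicate 1 against 3.14 TPM in replicate 2) and Gm8722 (1.94 and 3.17 TPM). Shared windows are exact runs of 100 bases, since length minus effective length was 99. The motif letters were chosen by hand, and that of NRF1 was shortened to 8 letters after a longer form had been searched. Alternatives were expected counts, posterior means, a pseudocount of 0.1, TMM factors of edgeR 4.0.16, size factors of DESeq2 1.42.0 (both on rounded expected counts), totals without mitochondrial genes, added copies, coding transcripts alone and leaving out a replicate. Python 3.11.15, numpy 2.4.6, pandas 2.3.3, Biopython 1.88, matplotlib 3.10.9 and R 4.3.3 were used. The ratio of replicate 1 over replicate 2 and the 2-fold call were tested on simulated counts that held counting error only. Shares and ratios of pairs were not tested in this way.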

Additional observations from a re-analysis of the deposited data

How the results depend on the processing

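None of the 10 genes was over 2-fold apart under any of the 8 alternatives run, and their median log2 ratio of replicate 1 over replicate 2 ranged from -0.31 to -0.17 (-0.28 as reported). TMM and DESeq2 factors shifted all ratios by 0.07 and 0.11. With a filter at a mean of 1 TPM alone, 59.8% of all genes were over 2-fold apart. The share of TPM was 3.39% over a total without mitochondrial genes and their copies on chromosome 1, and ranged from 2.37% to 3.16% with a replicate left out. By expected counts, which are not scaled to length, 6 pairs differed: Atp5b over Atp5a1 was 0.47, Atp5d over Atp5e 1.48 (now beyond its spread), Atp5o over Atp5h (0.36) changed sign within its spread, and the c-ring sum over Atp5b (-1.04) changed sign and was beyond its spread. In coding transcripts alone, an alternative chosen after seeing the data, 6 pairs differed and the c-ring sum over Atp5b was 0.78. Atp5o over Atp5h was 0.038 without replicate 2 and -0.48 without replicate 1. The share of Atp5c1 without the exon was 90.9% by expected counts and between 91.3% and 92.1% with a replicate left out, both added after seeing the data. The leading model was the same in 10 of 10 genes by TPM and by counts. With 2 libraries, leaving out a replicate only returns the value of the other, so it is no separate check. It gives no value for the leading models or the number of pairs, which need both libraries. No paired analysis was possible because the libraries form 1 group. Precision is limited by 2 libraries and, for Atp5g2 and parts of Atp5g1, Atp5h and Atp5o, by reads shared with copies.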
